A study of Mus musculus with 58 samples.

Results

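The lysosomal genes described here were 37 protein-coding genes chosen by name from the count table of a 24 h study of the mouse retina, out of 52459 rows in all. They comprised 9 cathepsins, 2 other enzymes that cleave proteins or their lipid anchors, 13 glycosidases and sulfatases, 4 lipid hydrolases and activators, 2 proteins of cholesterol export, 6 membrane proteins and the secreted and lysosomal protein progranulin. All 37 had a row in the table, and all 37 passed the filter used for the tests, a median of more than 4 normalized counts per library, as did 19120 genes in all.

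The lysosome is an acidic compartment in which hydrolases break down proteins, glycans and lipids delivered by endocytosis, phagocytosis and autophagy, and its membrane proteins hold the acidity, export the products and fuse with incoming vesicles. In the eye, photoreceptors shed the tips of their outer segments every day, and the retinal pigment epithelium, the cell layer behind them, takes up the tips and degrades them in its lysosomes. Inherited loss of many of these genes causes lysosomal storage disease, and several of these diseases, including forms of neuronal ceroid lipofuscinosis, lead to degeneration of the retina.

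RNA from single retinas was sequenced at ZT1, ZT5, ZT9, ZT13, ZT17 and ZT21, where ZT counts hours after lights on, in male mice aged 4 months that had lived under 12 h of light and 12 h of darkness. Control mice (genotype C57/BL/6) were littermates without hyperglycemia and gave 5, 6, 5, 5, 5 and 4 libraries at these time points, 30 in all. Diabetic mice were heterozygous for C57BL/6-Ins2Akita/J, a mutation that misfolds insulin and destroys the beta cells of the pancreas, and gave 5, 5, 5, 4, 4 and 5 libraries, 28 in all. All mice were perfused with cold PBS before the retinas were dissected, and at night the work was done under dim red light. The model is one of insulin deficiency present from the first weeks of life, in males of 1 inbred strain, so diabetes cannot be told apart here from other effects of the allele. Each library came from 1 mouse retina, so the tests below measure the spread between retinas.

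The libraries held 7773117 to 22147398 gene counts (median 15406440). Marker genes showed the retina: the 5 rod markers summed to 480563 to 736787 normalized counts per library, the 5 cone markers to 9981 to 12779 and the 5 Müller glia markers to 37057 to 55443. Other cells were low, with 279 to 506 for 10 microglia markers, 288 to 503 for 4 endothelial markers and 0 to 190.0 for 5 blood markers. A 24 h rhythm passed the test in control and diabetic retinas for 1 and 1 of 5 rod, 3 and 3 of 5 cone and 2 and 2 of 5 Müller glia markers. It passed for 0 and 2 of 8 tested microglia, 1 and 1 of 4 endothelial and 3 and 0 of 3 tested lens markers, and no blood marker reached the filter. In 3 control libraries (ZT1 replicate 6, ZT17 replicate 5 and ZT21 replicate 2) the 6 lens markers summed to 18728 to 27222, against at most 567 in the other libraries. Markers of the retinal pigment epithelium varied with the time of day and are described with the rhythms. In whole retina, fewer cells of a type and less RNA per cell cannot be told apart.

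Per kilobase of exon, the 37 genes had mean normalized counts from 10.6 (Manba, a mannosidase) to 2699.8 (Psap), with a median of 115 over the 37 and of 6.10 over all genes with a count. Psap encodes prosaposin, the precursor of the saposins that present sphingolipids to their hydrolases, and stood at 2699.8 ± 246 normalized counts per kb (SD, n = 58), above every other member in all 58 libraries. Lamp1, an abundant glycoprotein of the lysosomal membrane, and Ctsb, the cysteine protease cathepsin B, came next at 742 ± 49.1 and 741 ± 67.4, and these did not separate, with Lamp1 the higher in 36 of 58 libraries. The aspartic protease cathepsin D (Ctsd) followed at 603 ± 97.5 and acid sphingomyelinase (Smpd1) at 445 ± 69.2. The lowest were Lipa (29.8 ± 3.77), Ctsh (29.04 ± 3.97), Ctsc (23.7 ± 2.80), Gusb (22.5 ± 2.29) and Manba (10.6 ± 1.53). Exon lengths were the union of the Gencode M21 exons of each gene, which counts every isoform.

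Many lysosomal genes carry in their promoters a box bound by TFEB, a transcription factor that controls lysosome formation. The palindrome CACGTG, the E-box, is also bound by clock proteins, and TCACGTG on either strand, which contains the E-box, is the core of the TFEB box. In RefSeq windows of 300 bases around the gene start (250 before and 50 after, GRCm38.p6), which were matched for 33 of the 37 genes, CACGTG was present in 12 of 33 (36.4%) and TCACGTG in 10 of 33 (30.3%). The same boxes stood in 11.2% and 6.54% of the 11936 tested genes with a window. A gene counted where any of its windows held the box, and Cln3, Ctsa and Psap had 2 windows each, 36 in all for the 33 genes. Counted by window, CACGTG stood in 12 of 36 (33.3%) and TCACGTG in 10 of 36 (27.8%), beside 9.32% and 5.46% of the 15301 windows of tested genes. The 10 genes with TCACGTG were Cln3, Ctsa, Ctsd, Gaa, Gla, Glb1, Lamp1, Mcoln1, Naglu and Sgsh. The windows of Asah1, Ctsb, Ctsh and Npc1 were not matched.

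Of the genes with a called rhythm, that is, one that passed the test described with the rhythms, 4 held TCACGTG, and their boxes are shown so that they can be set beside the rhythms. Each line gives 30 bases around 1 box, 5′ to 3′ along the gene's strand, in GRCm38.p6 coordinates, with TCACGTG or its complement in capitals. The Cln3 boxes lie in the window chr7:126583187-126583486, inside the gene, and the window at its annotated start (chr7:126585768-126586067) held none.
Sgsh, chr11:119355522-119355551, minus strand: gggcctgccgtgCACGTGAccgtggggagc
Ctsd, chr7:142388048-142388077, minus strand: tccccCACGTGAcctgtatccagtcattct
Ctsd, chr7:142387908-142387937, minus strand: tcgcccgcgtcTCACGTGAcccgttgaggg
Cln3, chr7:126583368-126583397, minus strand: gcaaccctcaagCACGTGAtggaaggctca
Cln3, chr7:126583340-126583369, minus strand: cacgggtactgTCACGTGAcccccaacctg
Mcoln1, chr8:3500436-3500465, plus strand: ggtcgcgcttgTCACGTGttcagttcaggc
Mcoln1, chr8:3500462-3500491, plus strand: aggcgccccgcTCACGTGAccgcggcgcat

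The 250 bases before the start are shown for Lamp1, which held 4 boxes and had an almost flat day, and for Smpd1, which held none and had the largest amplitude in control retinas. Capitals again mark the box.
Lamp1, chr8:13158911-13159160, plus strand: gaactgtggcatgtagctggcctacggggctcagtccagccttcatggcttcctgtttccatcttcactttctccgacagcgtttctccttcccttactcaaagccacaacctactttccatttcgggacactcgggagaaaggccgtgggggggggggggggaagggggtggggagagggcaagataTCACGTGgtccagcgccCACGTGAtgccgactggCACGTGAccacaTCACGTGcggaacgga
Smpd1, chr7:105554110-105554359, plus strand: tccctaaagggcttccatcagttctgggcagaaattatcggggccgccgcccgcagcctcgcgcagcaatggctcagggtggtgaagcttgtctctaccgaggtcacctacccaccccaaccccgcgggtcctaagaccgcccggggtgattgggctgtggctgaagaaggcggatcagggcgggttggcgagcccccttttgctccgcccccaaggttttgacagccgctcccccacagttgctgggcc

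A match of letters is a description and does not show that a factor binds there. Of the 10 genes with a called rhythm in either genotype, 4 held TCACGTG, and the other 6 (Cd63, Lipa, Man2b1, Ppt1, Psap and Smpd1) did not. For Cln3 this rests on the window inside the gene.

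Over the day, most of the 37 genes moved little. In control retinas 3 of 37 (8.11%) passed the test for a 24 h rhythm (a cosine fitted to the counts, edgeR quasi-likelihood test, Benjamini-Hochberg adjusted p under 0.05), beside 12.2% of all genes tested. In diabetic retinas 10 of 37 (27.0%) passed, beside 14.3% of all genes. Smpd1, Sgsh and Ctsd passed in both genotypes, and Ppt1, Man2b1, Psap, Lipa, Mcoln1, Cln3 and Cd63 passed in diabetic retinas. The counts were not compared with each other, and the direct test of a difference between the rhythms, given after them, called 0 of 37. Without adjustment 11 passed in control retinas and 14 in diabetic retinas, beside 26.4% and 26.9% of all genes. A rank test against 30 waveforms, called at an unadjusted p under 0.05 with a minimum fold between libraries, took 8 of 37 in control and 12 of 37 in diabetic retinas, beside 21.8% and 23.9% of all genes. Its control calls were Smpd1, Sgsh, Psap, Lipa, Cd63, Ctsb, Gla and Gusb. Its diabetic calls were the same 10 as with edgeR, with Ctsb and Ctsl. DESeq2 called 5 of 37 in control and 12 of 37 in diabetic retinas, beside 13.6% and 16% of all genes. A test of any difference among the 6 time points called 1 and 7, beside 9.06% and 10.2%. With markers of the retinal pigment epithelium, which moved over the day, as a covariate, the diabetic count fell to 4 (beside 9.07% of all genes), without Ctsd, Cln3, Psap, Man2b1, Mcoln1 and Cd63. Without 1 time point the diabetic count was 6 (ZT5), 5 (ZT9), 4 (ZT17) and 4 (ZT21), beside 11.6%, 9.42%, 7.04% and 8.1% of all genes. It was 9 without ZT1 and 12 without ZT13. The control count was 1 without any 1 of ZT1, ZT5, ZT17 and ZT21, beside 10.7%, 6.1%, 3.96% and 9.67%. It was 3 without ZT9 or ZT13. Without the 3 lens-rich libraries Smpd1, Sgsh and Ctsd again passed in control retinas, beside 11.3% of all genes. The diabetic calls were then the same 10 and Ctsl (adjusted p = 0.0463), beside 14.1% of all genes. The control count was 1 without control ZT5 replicate 1, ZT17 replicate 5 or ZT21 replicate 3, 5 without ZT9 replicate 5 or ZT21 replicate 2 and 7 without ZT9 replicate 4, and the diabetic count was 6 without diabetic ZT17 replicate 5.

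The amplitude, which is the height of the fitted cosine above its mean, had a median of 0.065 (log2) in control and 0.068 in diabetic retinas, against 0.10 and 0.10 over all genes tested. The acrophase, the time of the fitted peak, fell in the night (ZT12 to ZT24) for 20 genes in control (54.1%) and 23 in diabetic retinas (62.2%), beside 45.8% and 47.2% of all genes tested. Of the called rhythms, 2 peaked in the night and 1 in the day in control retinas, while diabetic retinas had 5 of each. Among all called genes 1138 peaked in the night and 1199 in the day in control retinas, and 1334 and 1402 in the diabetic ones. The ratio of the highest to the lowest group mean ranged over the members from 1.03 to 1.42 in control and from 1.04 to 1.46 in diabetic retinas. Time points of a genotype set against each other below had the gene's highest and lowest means, except ZT9 for Mcoln1. A gap between their libraries therefore does not test the rhythm. Such gaps also stood without a called rhythm, for Gla and Gusb in control and Ctsf, Glb1 and Grn in diabetic retinas.

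**Figure D1:**
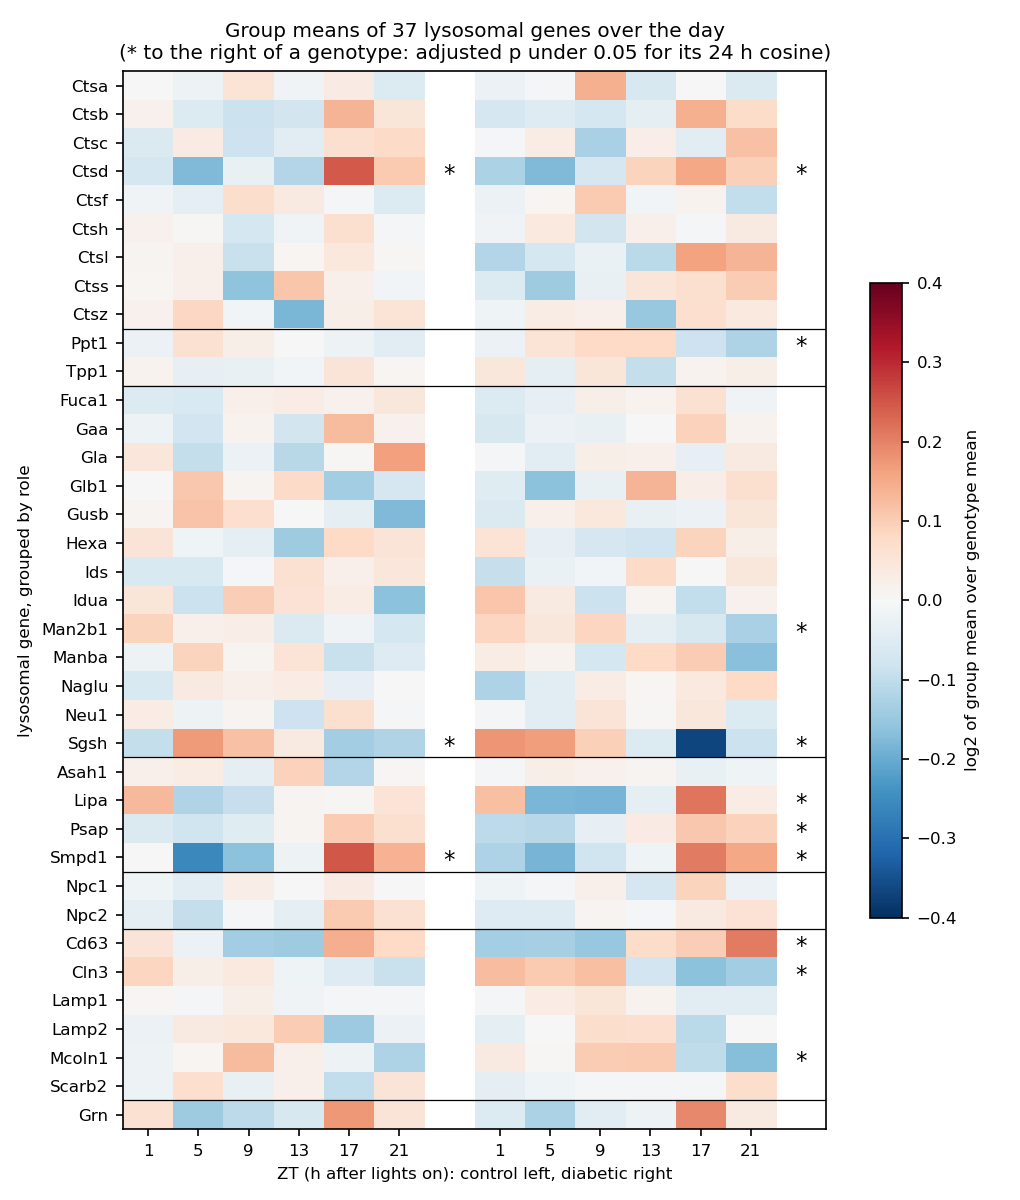
Heat map of the mean normalized count of each of the 37 lysosomal genes at each ZT, as log2 of the group mean over the mean of its genotype, control on the left and diabetic on the right, with role groups separated by lines. A star marks an adjusted p under 0.05 for the 24 h cosine (3 genes in control, 10 in diabetic): Smpd1 and Ctsd are blue at ZT5 and red at ZT17 in both genotypes, Sgsh runs the other way, and most rows stay pale.

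Beside 12.2% of all genes in control and 14.3% in diabetic retinas, 1 of the 9 cathepsins, the proteases of the lysosome, passed in each genotype. This was Ctsd (chr7:142375911-142388038, minus strand), the main aspartic protease of the compartment, which degrades rhodopsin in the pigment epithelium. In control retinas its mean normalized counts were 1378 ± 223 (ZT1), 1279 ± 81.4 (ZT5) and 1419 ± 255 (ZT9) by day. At night control Ctsd stood at 1334 ± 200.8 (ZT13), 1714 ± 342 (ZT17) and 1558 ± 159.8 (ZT21), all given ± SD. At ZT5 it had a lowest value of 1201, a median of 1254 and a highest value of 1413, and at ZT17 values of 1396, 1448, 1587, 1958 and 2183. The ZT17 retinas were the higher, and the lowest of them lay just below the highest at ZT5, so the groups overlapped. The fit gave an amplitude of 0.16 ± 0.047 (log2, SE) and an acrophase of ZT18.2 ± 1.16 h (SE), a 1.253-fold change from trough to peak (adjusted p = 0.0388). Diabetic means were 1287 ± 104 (ZT1), 1245 ± 146 (ZT5) and 1341 ± 180.1 (ZT9) by day. At night diabetic Ctsd stood at 1495 ± 168 (ZT13), 1566 ± 248 (ZT17) and 1504 ± 212 (ZT21). Diabetic retinas had values of 1084, 1155, 1231, 1288 and 1465 at ZT5 and values of 1283, 1499, 1602 and 1879.7 at ZT17, again higher at ZT17 with overlap. The diabetic fit gave an amplitude of 0.17 ± 0.051 (log2, SE) and an acrophase of ZT16.7 ± 1.10 h (SE) (adjusted p = 0.0400). Of the exonic bases of Ctsd, 34.4% are shared with Gm49369 on the same strand, so reads there could be split or dropped. The Ctsd calls were close to the threshold. In control retinas the call was lost (adjusted p 0.0527 to 0.172) without any 1 of control ZT5 replicates 1, 2, 3 and 6, ZT9 replicates 1, 2 and 3, ZT17 replicates 1, 3 and 5 and ZT21 replicates 3 and 4. In diabetic retinas it was lost (0.0502 to 0.130) without any 1 of diabetic ZT1 replicate 3, ZT5 replicates 1, 2 and 5, ZT9 replicate 1, ZT13 replicate 5, ZT17 replicates 3 and 5 and ZT21 replicates 3 and 4. It was also lost without ZT1, ZT5, ZT17 or ZT21 in control (0.0550 to 0.570) and without ZT1, ZT5, ZT9, ZT17 or ZT21 in diabetic retinas (0.0527 to 0.195). A test of any difference among the 6 time points gave adjusted p values of 0.0679 and 0.235, and the unadjusted rank test did not call Ctsd in control retinas.

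Ctsb, the cysteine protease cathepsin B, had control means of 4614 ± 428 (ZT1), 4390.0 ± 184 (ZT5) and 4291 ± 462 (ZT9) by day. At night control Ctsb stood at 4329 ± 278 (ZT13), 5006 ± 375 (ZT17) and 4709 ± 259 (ZT21). Its control fit gave an amplitude of 0.095 ± 0.029 (log2, SE) and an acrophase of ZT20.0 ± 1.16 h (SE) and did not pass with edgeR (adjusted p = 0.0629). Diabetic means were 4231 ± 346 (ZT1), 4276 ± 271 (ZT5) and 4224 ± 409.6 (ZT9) by day. At night diabetic Ctsb stood at 4319 ± 355 (ZT13), 4892 ± 429.7 (ZT17) and 4672 ± 338 (ZT21). The diabetic fit gave an amplitude of 0.093 ± 0.030 (log2, SE) and an acrophase of ZT18.2 ± 1.251 h (SE) and did not pass (adjusted p = 0.0657). The fitted peaks lay in the night in both genotypes, as for Ctsd, and 12.8% of the exonic bases of Ctsb are shared with Fdft1. DESeq2 called Ctsb in both genotypes (adjusted p = 0.0404 and 0.0413), and the rank test, which has no adjustment, also took it in both. Without ZT13 it passed in diabetic retinas (0.0457). The control rhythm passed (adjusted p 0.0287 to 0.0440) without any 1 of control ZT1 replicate 3, ZT9 replicates 4 and 5 and ZT21 replicate 2. Ctsl, cathepsin L, had an adjusted p of 0.0656 in diabetic retinas with an amplitude of 0.11, and 0.814 in control retinas. Diabetic Ctsl passed with DESeq2 (adjusted p = 0.0421), with the test of any difference among the 6 time points (0.0400), without ZT1 (0.0407) or ZT13 (0.0142), and the unadjusted rank test took it as well. The carboxypeptidase Ctsa, the aminopeptidase-type Ctsc and Ctsh, and Ctsf, Ctss and Ctsz had adjusted p values from 0.443 to 0.914 in control and from 0.151 to 0.928 in diabetic retinas.

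Ppt1 (chr4:122836242-122859175, plus strand), palmitoyl-protein thioesterase, removes fatty acids from proteins on their way to degradation, and its loss causes infantile neuronal ceroid lipofuscinosis. Its mean normalized counts in diabetic retinas were 930.3 ± 23.7 (ZT1), 981 ± 30.9 (ZT5) and 999.5 ± 34.1 (ZT9) by day. At night diabetic Ppt1 stood at 999 ± 46.8 (ZT13), 893 ± 62.2 (ZT17) and 868 ± 38.0 (ZT21). Diabetic retinas had values of 949.9, 982, 1013, 1016 and 1037 at ZT9 and values of 825, 837, 873, 881 and 921 at ZT21. All ZT9 retinas lay above all ZT21 retinas. The diabetic fit gave an amplitude of 0.11 ± 0.022 (log2, SE) and an acrophase of ZT8.52 ± 0.771 h (SE), a 1.16-fold change (adjusted p = 0.000662), and the call held without each of the 58 libraries in turn but not without ZT21 (0.0644). Control means were 941 ± 25.5 (ZT1), 998 ± 67.1 (ZT5) and 973 ± 59.0 (ZT9) by day. At night control Ppt1 stood at 958 ± 45.7 (ZT13), 943 ± 67.8 (ZT17) and 928 ± 41.2 (ZT21). The control amplitude of Ppt1 was 0.049 (adjusted p = 0.249). Tpp1, the tripeptidyl peptidase whose loss causes late infantile neuronal ceroid lipofuscinosis, was nearly flat. Its amplitude was 0.033 in control (adjusted p = 0.615) and 0.031 in diabetic retinas (adjusted p = 0.675).

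Among the 13 glycosidases and sulfatases, which cut sugars and sulfates from glycans, 1 passed in control and 2 in diabetic retinas, beside 12.2% and 14.3% of all genes. Sgsh (chr11:119343425-119355536, minus strand) encodes sulfamidase, an enzyme of heparan sulfate breakdown, and it had the largest amplitude of the 37 in diabetic retinas. Its mean normalized counts in control retinas were 187 ± 22.6 (ZT1), 224 ± 17.8 (ZT5) and 216 ± 17.4 (ZT9) by day. At night control Sgsh stood at 204 ± 21.8 (ZT13), 181 ± 26.6 (ZT17) and 183 ± 23.6 (ZT21). Control retinas had a lowest value of 197, a median of 228 and a highest value of 244 at ZT5, and values of 156, 164, 174, 188 and 223 at ZT17. The ZT5 retinas were the higher, and the highest ZT17 retina stood inside their range. The control fit gave an amplitude of 0.17 ± 0.048 (log2, SE) and an acrophase of ZT7.66 ± 1.05 h (SE) and a 1.27-fold change (adjusted p = 0.0309). Diabetic means were 194 ± 23.1 (ZT1), 193 ± 30.8 (ZT5) and 184 ± 21.1 (ZT9) by day. At night diabetic Sgsh stood at 165 ± 22.8 (ZT13), 133 ± 30.0005 (ZT17) and 162 ± 20.5 (ZT21). Diabetic retinas had values of 159, 189.9, 192, 209 and 219.9 at ZT1 and values of 109, 114, 135 and 175 at ZT17, where all but 1 of the ZT17 retinas lay below every ZT1 retina. The diabetic fit gave an amplitude of 0.25 ± 0.051 (log2, SE) and an acrophase of ZT4.64 ± 0.757 h (SE) and a 1.41-fold change (adjusted p = 0.00129). The diabetic call held without each library in turn but not without ZT17 (0.132). The control call was lost without control ZT5 replicate 1 (adjusted p = 0.0605), ZT5 replicate 5 (0.0502), ZT17 replicate 4 (0.0545), ZT17 replicate 5 (0.0611) or ZT21 replicate 3 (0.0768), and without ZT1, ZT5, ZT9, ZT17 or ZT21 altogether (0.0606 to 0.232). It was lost as well with the wider filter of 10 or more reads in all (0.0686) and with the test of any difference among the time points (0.153). Of the exonic bases of Sgsh, 21.6% overlap Card14 on the other strand, and whether counting used the strand is not given in the sources used here.

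Man2b1, the alpha-mannosidase of glycoprotein breakdown, passed in diabetic retinas. It had values of 582, 603, 641, 662 and 662 at ZT9 and values of 516, 532, 534, 548 and 581 at ZT21, and the lowest ZT9 retina stood just above the highest ZT21 retina. The fit gave an amplitude of 0.10 ± 0.028 (log2, SE) and an acrophase of ZT6.06 ± 1.04 h (SE) (adjusted p = 0.0219), and without diabetic ZT17 replicate 5, ZT9 or ZT21 the adjusted p was 0.0642, 0.143 or 0.271. With the wider filter of 10 or more reads in all it was 0.0847. In control retinas its amplitude was 0.054 (adjusted p = 0.341). Gla, the alpha-galactosidase lost in Fabry disease, and Gusb, beta-glucuronidase, had unadjusted p values under 0.05 in control retinas (adjusted p = 0.111 and 0.121). The 12 members of this group that did not pass in control retinas had adjusted p values from 0.111 to 0.907, and the 11 in diabetic retinas from 0.225 to 0.994.

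Of the 4 lipid hydrolases and activators, 1 passed in control and 3 in diabetic retinas, beside 12.2% and 14.3% of all genes. Each of these called rhythms had its peak in the night. Smpd1 (chr7:105554360-105558389, plus strand), acid sphingomyelinase, turns sphingomyelin into ceramide, and it gave the largest amplitude of the 37 in control retinas. Its control means were 1559 ± 134 (ZT1), 1304 ± 70.3 (ZT5) and 1393 ± 213 (ZT9) by day. At night control Smpd1 stood at 1538 ± 165 (ZT13), 1852 ± 226 (ZT17) and 1717 ± 116 (ZT21). Control retinas had a lowest value of 1225, a median of 1279.7 and a highest value of 1397 at ZT5, and values of 1672, 1692, 1701, 2056 and 2139 at ZT17. Every ZT17 retina was above every ZT5 retina. The control fit gave an amplitude of 0.24 ± 0.036 (log2, SE) and an acrophase of ZT18.6 ± 0.6002 h (SE) and a 1.39-fold change (adjusted p = 1.60e-05). Diabetic means were 1309 ± 78.2 (ZT1), 1256 ± 74.1 (ZT5) and 1352 ± 137 (ZT9) by day. At night diabetic Smpd1 stood at 1409.7 ± 127 (ZT13), 1650.0 ± 317 (ZT17) and 1588 ± 137 (ZT21). Diabetic retinas had values of 1193, 1197, 1226, 1298 and 1365 at ZT5 and values of 1340.3, 1540.2, 1629.9 and 2089.7 at ZT17. The ZT17 values were the higher, but the lowest fell within the ZT5 range. The diabetic fit gave an amplitude of 0.19 ± 0.038 (log2, SE) and an acrophase of ZT17.6 ± 0.777 h (SE) and a 1.30-fold change (adjusted p = 0.00101). Both calls held without each of the 58 libraries and without each time point in turn.

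Lipa (chr19:34492318-34527474, minus strand), lysosomal acid lipase, splits cholesteryl esters and triglycerides. Its diabetic means were 222 ± 24.6 (ZT1), 179.8 ± 25.4 (ZT5) and 179 ± 26.0 (ZT9) by day. At night diabetic Lipa stood at 198 ± 31.0 (ZT13), 237 ± 19.4 (ZT17) and 208 ± 11.8 (ZT21). Diabetic retinas had values of 157, 159, 171, 189.9 and 219.6 at ZT9 and values of 216, 224, 252 and 254 at ZT17, so that only the highest ZT9 retina reached the ZT17 range. The diabetic fit gave an amplitude of 0.17 ± 0.043 (log2, SE) and an acrophase of ZT19.5 ± 0.971 h (SE) and a 1.27-fold change (adjusted p = 0.0107), and the call held without each library but not without ZT5 (0.0832), ZT9 (0.0853) or ZT17 (0.118). Control means were 221 ± 28.9 (ZT1), 186 ± 9.29 (ZT5) and 189 ± 20.8 (ZT9) by day. At night control Lipa stood at 203 ± 8.01 (ZT13), 202 ± 23.8 (ZT17) and 209.6 ± 12.6 (ZT21). The control amplitude of Lipa was 0.089 (adjusted p = 0.334). Psap, prosaposin (chr10:60277627-60302597, plus strand), had diabetic means of 6862 ± 488 (ZT1), 6832 ± 521 (ZT5) and 7206 ± 479 (ZT9) by day. At night diabetic Psap stood at 7555 ± 486 (ZT13), 7944 ± 1024 (ZT17) and 7866 ± 453 (ZT21). The diabetic retinas had values of 6015, 6724, 6977, 7014 and 7427 at ZT5 and values of 6608, 7854, 8249 and 9066 at ZT17, higher at ZT17 with overlap. Its diabetic fit gave an amplitude of 0.11 ± 0.030 (log2, SE) and an acrophase of ZT16.8 ± 0.977 h (SE) (adjusted p = 0.0163), and without diabetic ZT17 replicate 3 the adjusted p was 0.0708. It was 0.0506 to 0.0951 without ZT1, ZT5, ZT17 or ZT21, and 0.116 with the test of any difference among the time points. Control means of Psap were 7199 ± 594 (ZT1), 7082 ± 193 (ZT5) and 7241 ± 619 (ZT9) by day. At night control Psap stood at 7539 ± 842 (ZT13), 8029.7 ± 821 (ZT17) and 7831 ± 332 (ZT21). The fit gave an amplitude of 0.086 ± 0.028 (log2, SE) and an acrophase of ZT17.5 ± 1.29 h (SE) (adjusted p = 0.0772). The control rhythm of Psap passed without any 1 of control ZT9 replicate 4, ZT13 replicate 2 and ZT17 replicate 4 (0.0384 to 0.0473). Asah1, acid ceramidase, which takes ceramide onward from Smpd1, had adjusted p values of 0.698 and 0.812.

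**Figure D2:**
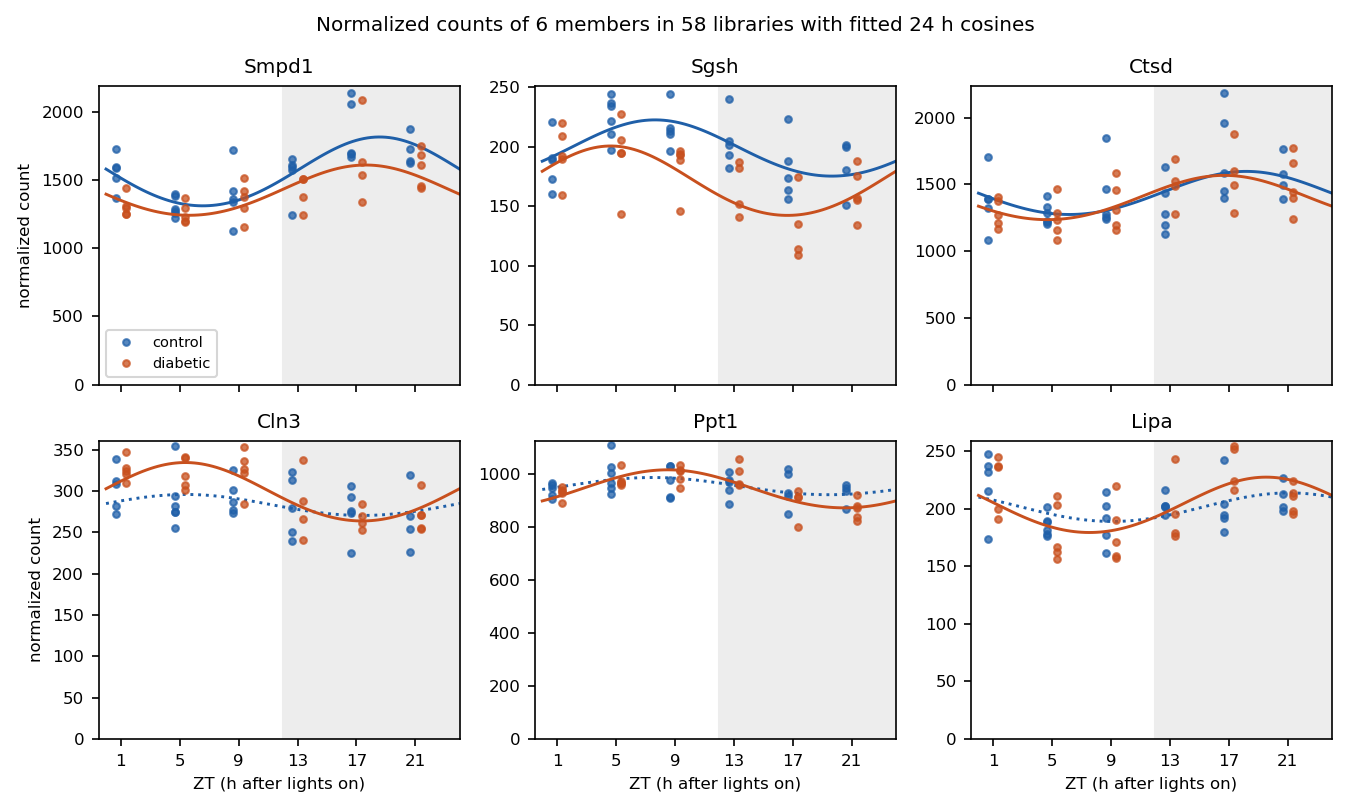
Normalized counts of Smpd1, Sgsh, Ctsd, Cln3, Ppt1 and Lipa in each of the 58 libraries against ZT, with the fitted 24 h cosine of each genotype (control blue, diabetic orange, dotted where the adjusted p was 0.05 or more) and the night shaded. Smpd1 and Ctsd have their trough in the day and their fitted peak between ZT16 and ZT19, Sgsh, Cln3 and Ppt1 peak in the day, and the libraries of the genotypes lie over each other at most time points.

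Neither Npc1, the membrane protein that passes cholesterol out of the lysosome, nor Npc2, the soluble protein that hands it over, had a called rhythm. Their adjusted p values were 0.729 and 0.153 in control and 0.965 and 0.648 in diabetic retinas.

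Of the 6 membrane proteins, 0 passed in control retinas (edgeR, with 2 under an unadjusted p of 0.05 and 0 by DESeq2) and 3 passed in diabetic retinas. Of all genes 12.2% passed in control (26.4% without adjustment, 13.6% by DESeq2) and 14.3% in diabetic retinas. The unadjusted rank test took 1 of the 6, Cd63, in control retinas, beside 21.8% of all genes. Cln3 (chr7:126571207-126585817, minus strand), the membrane protein lost in juvenile neuronal ceroid lipofuscinosis, had diabetic means of 326 ± 13.7 (ZT1), 322 ± 18.2 (ZT5) and 325 ± 25.5 (ZT9) by day. At night diabetic Cln3 stood at 283 ± 40.8 (ZT13), 267 ± 13.3 (ZT17) and 272 ± 21.2 (ZT21). Diabetic retinas had values of 309, 321, 324, 329 and 347 at ZT1 and values of 253, 262, 269.5 and 284 at ZT17, and all ZT1 retinas lay above all ZT17 retinas. The fit gave an amplitude of 0.17 ± 0.038 (log2, SE) and an acrophase of ZT5.38 ± 0.831 h (SE) and a 1.27-fold change (adjusted p = 0.00289), which held without each library but not without ZT17 (0.0519). Control means were 302 ± 26.4 (ZT1), 289 ± 34.5 (ZT5) and 293 ± 21.3 (ZT9) by day. At night control Cln3 stood at 281 ± 36.95 (ZT13), 275 ± 31.0 (ZT17) and 268 ± 39.1 (ZT21). The control amplitude of Cln3 was 0.065 (adjusted p = 0.436). Of the exonic bases of Cln3, 7.65% are shared with Apobr. Mcoln1, the calcium channel mucolipin 1, had values of 853, 856, 966, 1006 and 1076 at ZT9 and values of 772, 780.3, 783, 803 and 804 at ZT21 in diabetic retinas, without overlap. Its diabetic fit gave an amplitude of 0.12 ± 0.035 (log2, SE) and an acrophase of ZT8.39 ± 1.12 h (SE) (adjusted p = 0.0329), beside an amplitude of 0.10 in control retinas (adjusted p = 0.135). The Mcoln1 call was lost (0.0552 to 0.0948) without any 1 of diabetic ZT5 replicate 5, ZT9 replicates 1 and 5, ZT17 replicate 5 and ZT21 replicates 1, 3, 4 and 5, and without ZT9, ZT17 or ZT21 altogether (0.115 to 0.528). It was lost too with the filter of 10 or more reads in all (0.0947) and with the test of any difference (0.0657). Cd63, a tetraspanin of late endosomes and exosomes, had values of 295, 302, 323, 335 and 339 at ZT9 and values of 355, 360.0, 434, 439 and 459 at ZT21 in diabetic retinas, also without overlap and in the opposite direction to Mcoln1. Its fit gave an amplitude of 0.18 ± 0.051 (log2, SE) and an acrophase of ZT18.1 ± 1.11 h (SE) (adjusted p = 0.0331), beside 0.13 in control retinas (adjusted p = 0.170). The Cd63 call was lost without diabetic ZT17 replicate 5 (0.0774) or ZT21 replicate 1 (0.0602), 3 (0.0624) or 4 (0.0721), and without ZT5, ZT9 or ZT21 altogether (0.0888 to 0.240), and with the test of any difference (0.122). The abundant structural proteins Lamp1, Lamp2 and Scarb2, the last also the carrier of glucocerebrosidase, had adjusted p values of 0.936, 0.583 and 0.518 in control and 0.272, 0.768 and 0.840 in diabetic retinas.

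Grn, progranulin, a secreted protein that is also cut into granulins inside the lysosome, had control means of 409 ± 46.7 (ZT1), 356 ± 38.6 (ZT5) and 365 ± 62.8 (ZT9) by day. At night control Grn stood at 375 ± 46.9 (ZT13), 443 ± 76.5 (ZT17) and 407 ± 32.6 (ZT21). Diabetic means of Grn were 392 ± 26.8 (ZT1), 373 ± 40.6 (ZT5) and 395 ± 47.3 (ZT9) by day. At night diabetic Grn stood at 402 ± 14.3 (ZT13), 465 ± 68.0 (ZT17) and 417 ± 57.0 (ZT21). The highest mean was at ZT17 in both genotypes. The control fit gave an amplitude of 0.14 ± 0.044 (log2, SE) and an acrophase of ZT19.5 ± 1.19 h (SE) and did not pass with edgeR (adjusted p = 0.0694). In diabetic retinas it gave an amplitude of 0.12 ± 0.045 (log2, SE) and an acrophase of ZT17.2 ± 1.404 h (SE) and did not pass either (adjusted p = 0.131). The control rhythm of Grn passed with DESeq2 (adjusted p = 0.0494). It also passed (0.0208 to 0.0425) without any 1 of control ZT5 replicate 5, ZT9 replicate 4, ZT17 replicate 2 and ZT21 replicate 2. Among the ZT17 libraries, replicate 3 had the highest count of Ctsd, Ctsb, Psap, Smpd1 and Grn in both genotypes. The night highs of these genes therefore shared a library. Lipa and Cd63 had their highest ZT17 counts in other libraries.

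**Figure D3:**
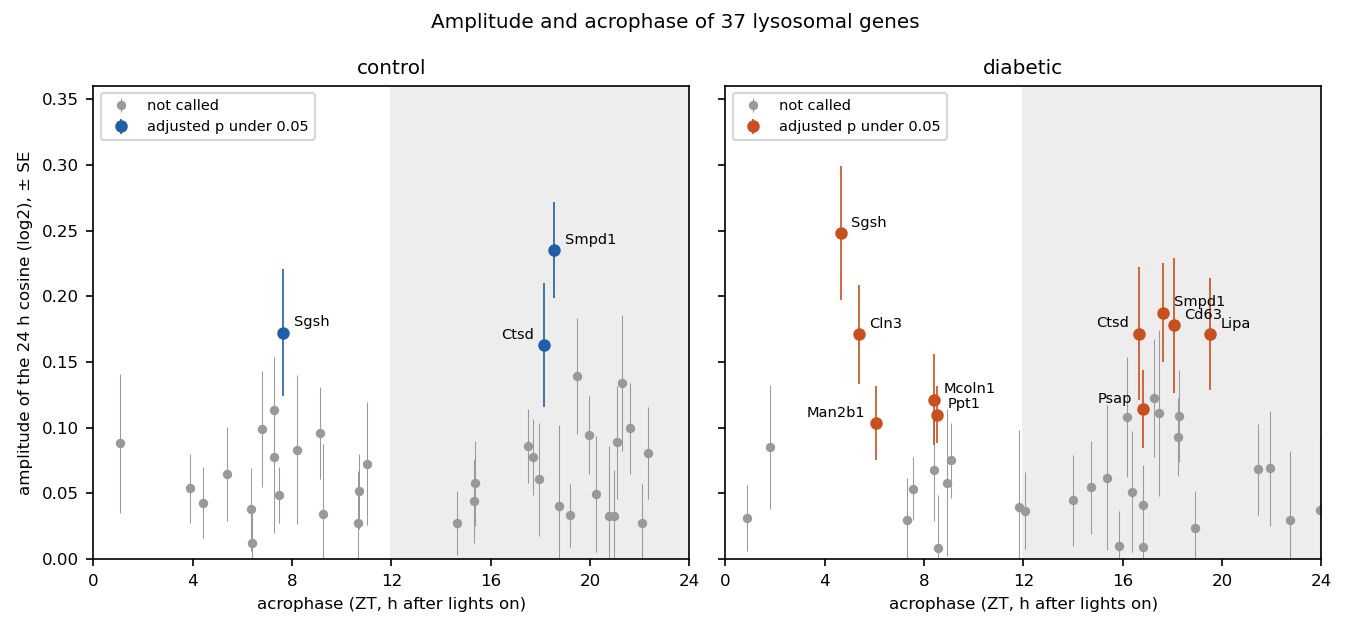
Amplitude of the fitted 24 h cosine (log2, bars are ± SE) against acrophase (ZT) for the 37 genes in control (left) and diabetic (right) retinas, with called genes coloured and named and the night shaded. Called genes form a night group near ZT17 to ZT20 in both genotypes and a day group between ZT4 and ZT9, which holds Sgsh in control retinas and Sgsh, Cln3, Man2b1, Mcoln1 and Ppt1 in diabetic retinas.

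The rhythms of the genotypes were then compared directly. The difference of the 24 h cosine passed for 0 of 37 genes and for 0 of the 19120 tested (0% of all genes, edgeR), and DESeq2 also called 0. At an unadjusted p under 0.05 there were 2 of 37, beside 3.44% of all genes. The first was Glb1, the beta-galactosidase lost in GM1 gangliosidosis (n = 58, edgeR p = 0.0108, adjusted p = 0.9998). Glb1 had control means of 110.3 ± 15.2 (ZT1), 119 ± 11.9972 (ZT5) and 111 ± 10.2 (ZT9) by day. At night control Glb1 stood at 117 ± 11.3 (ZT13), 100.5 ± 18.2 (ZT17) and 106 ± 6.03 (ZT21). Diabetic means of Glb1 were 109 ± 13.4 (ZT1), 101 ± 10.2 (ZT5) and 111 ± 12.6 (ZT9) by day. At night diabetic Glb1 stood at 124 ± 11.5 (ZT13), 115 ± 11.5 (ZT17) and 118 ± 10.8 (ZT21). At ZT5 control retinas had a lowest value of 99.5, a median of 123 and a highest value of 129.8, and diabetic retinas values of 87.0, 93.7, 105, 109.6 and 109.8, lower with overlap. Its acrophase was ZT6.80 in control and ZT16.2 in diabetic retinas, a shift of 9.37 h, although neither rhythm passed by itself (adjusted p = 0.265 and 0.225). The second was Sgsh, with an acrophase shift of -3.02 h (n = 58, edgeR p = 0.0471), that is, earlier in diabetic retinas. Idua, the iduronidase lost in Hurler disease, was next (n = 58, edgeR p = 0.0865), with a shift of -9.26 h. Control means of Idua were 171 ± 17.5 (ZT1), 156 ± 12.6 (ZT5) and 177 ± 25.1 (ZT9) by day. At night control Idua stood at 172 ± 22.8 (ZT13), 169 ± 13.2 (ZT17) and 147 ± 14.1 (ZT21). Diabetic means of Idua were 173 ± 25.4 (ZT1), 164 ± 27.4 (ZT5) and 151 ± 24.4 (ZT9) by day. At night diabetic Idua stood at 162 ± 13.7 (ZT13), 149.9 ± 11.3 (ZT17) and 162 ± 13.6 (ZT21). Its rhythm passed in neither genotype (adjusted p = 0.539 and 0.439). Glb1 shares 5.49% of its exonic bases with Tmppe on the same strand, and Idua 6.30% with Dgkq and Slc26a1.

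Markers of the retinal pigment epithelium moved over the day with several of these genes. Of the 8 markers listed, Rlbp1 is also made by Müller glia and was left out of the sum, and its rhythm was called in neither genotype (adjusted p = 0.604 and 0.232). The summed normalized count of the other 7 markers (Rpe65, Best1, Lrat, Rgr, Rdh5, Ttr and Slc6a20a) ranged from 459.7 to 4478 in control and from 388 to 4826 in diabetic libraries, and was above 0 in every library. Its medians in control libraries were 947 (ZT1), 1034 (ZT5), 2606 (ZT9), 2710.5 (ZT13), 2531 (ZT17) and 3255 (ZT21). In diabetic libraries they were 892 (ZT1), 504 (ZT5), 1762 (ZT9), 2909 (ZT13), 2003 (ZT17) and 3348 (ZT21). The medians were lowest at ZT1 and ZT5 and highest at ZT21 in both genotypes. Of the 7, 6 had a called rhythm in each genotype, with amplitudes of 0.44 to 0.80 and acrophases of ZT14.0 to ZT16.3 in control and 0.82 to 1.29 and ZT15.5 to ZT16.6 in diabetic retinas. With the log2 sum of the markers as a covariate, an alternative chosen after the data were seen, 3 members passed in control retinas (Gla, Sgsh and Smpd1), beside 11.8% of all genes in the same fit, and 4 in diabetic retinas (Lipa, Ppt1, Sgsh and Smpd1), beside 9.07%. The rhythm of Ctsd no longer passed (adjusted p = 0.146 in control and 0.5496 in diabetic libraries). Neither did the diabetic rhythms of Cln3 (0.175), Psap (0.442), Man2b1 (0.243), Mcoln1 (0.0791) and Cd63 (0.338). Under the same covariate the adjusted p of Smpd1 was 8.37e-05 in control and 0.0218 in diabetic libraries, and that of Sgsh was 0.0206 and 0.00455. For diabetic Ppt1 and Lipa it was 0.00222 and 0.0304. Because both the markers and the members vary with ZT, this covariate removes part of any rhythm of that phase, whatever its source. Of the microglia markers, Csf1r and C1qc also had a called rhythm in diabetic retinas, with acrophases of ZT16.1 and ZT15.6, and the part of microglia in these results was not tested.

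**Figure D4:**
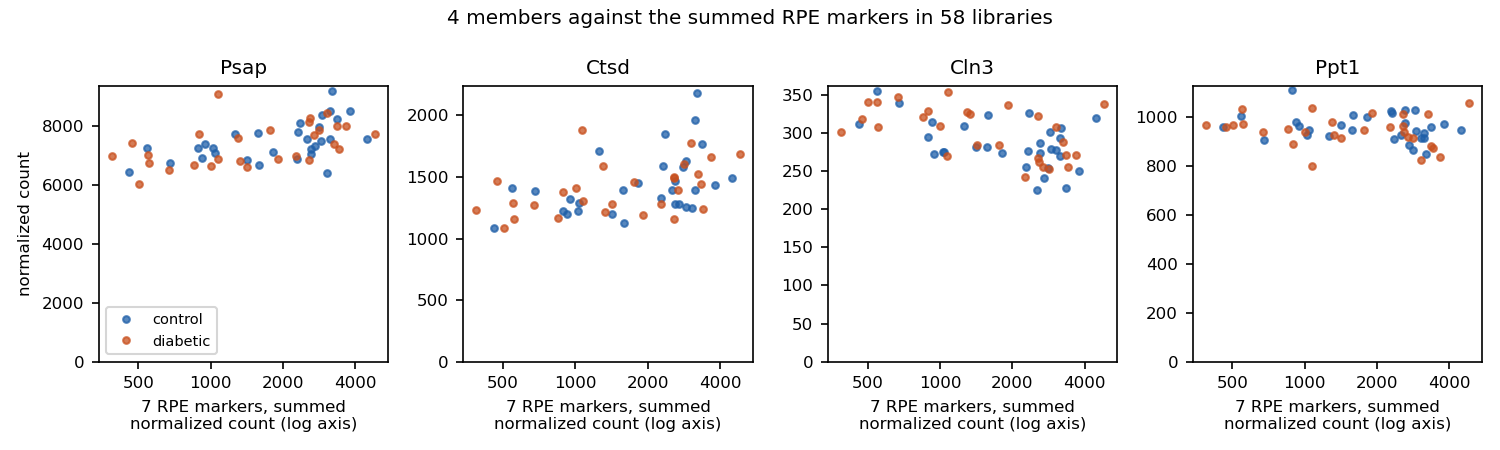
Normalized counts of Psap, Ctsd, Cln3 and Ppt1 in the 58 libraries (vertical axis from 0) against the summed normalized count of 7 markers of the retinal pigment epithelium (log axis), control blue and diabetic orange. Psap and Ctsd drift upward and Cln3 downward from libraries with few marker counts to libraries with many, with wide scatter, while Ppt1 shows little drift.

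Diabetic and control retinas were next compared over all time points together. Of the 37 genes 2 passed, Tpp1 and Sgsh, both lower in diabetic retinas, beside 2.99% of all genes called in either direction. Of all genes 1.41% were called lower and 1.58% higher. Tpp1 (chr7:105744811-105752235, minus strand) had a lowest, median and highest normalized count of 1528, 1723 and 1899 in the 30 control retinas and of 1252, 1631 and 1785 in the 28 diabetic retinas. The ranges overlapped over most of their width, and the diabetic mean was the lower at 6 of 6 time points. The log2 difference, diabetic minus control, was -0.10 ± 0.024 (log2, SE) (adjusted p = 0.0172). Its control means were 1746 ± 68.3 (ZT1), 1689 ± 81.2 (ZT5) and 1693 ± 90.6 (ZT9) by day. At night control Tpp1 stood at 1714 ± 78.9 (ZT13), 1792 ± 103 (ZT17) and 1738 ± 102 (ZT21). Diabetic means of Tpp1 were 1664 ± 44.8 (ZT1), 1571 ± 101 (ZT5) and 1668 ± 76.6 (ZT9) by day. At night diabetic Tpp1 stood at 1509 ± 186 (ZT13), 1628 ± 126 (ZT17) and 1638 ± 46.5 (ZT21). The Tpp1 call held without each of the 58 libraries. Sgsh had a lowest, median and highest normalized count of 151, 200.7 and 244 in control and 109, 185 and 227 in diabetic retinas, with the diabetic mean lower at 5 of 6 time points. Its log2 difference was -0.21 ± 0.060 (log2, SE) (adjusted p = 0.0364). The Sgsh call was lost (0.0502 to 0.0577) without any 1 of control ZT5 replicates 1, 4 and 5 and diabetic ZT5 replicate 5, ZT9 replicate 5, ZT17 replicates 1, 4 and 5 and ZT21 replicates 1 and 5. With the marker covariate of the pigment epithelium both calls stood (Sgsh adjusted p = 0.0147, Tpp1 0.0156), as they did without the 3 lens-rich libraries (0.0414 and 0.0162).

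Lamp1 (chr8:13159161-13175338, plus strand) and Ctsa were next, and did not pass with edgeR. Lamp1 had a lowest, median and highest normalized count of 1871, 2038 and 2227 in control and 1693, 1923 and 2230.2 in diabetic retinas (log2 difference -0.078 ± 0.024 (log2, SE), adjusted p = 0.0646), with lower diabetic means at 6 of 6 time points. Its control means were 2044 ± 125 (ZT1), 2029 ± 67.5 (ZT5) and 2070.1 ± 90.5 (ZT9) by day. At night control Lamp1 stood at 2014 ± 105 (ZT13), 2029 ± 176 (ZT17) and 2027 ± 113 (ZT21). Diabetic means of Lamp1 were 1921 ± 109 (ZT1), 1968 ± 176 (ZT5) and 1995 ± 139 (ZT9) by day. At night diabetic Lamp1 stood at 1946 ± 105 (ZT13), 1869.7 ± 190.4 (ZT17) and 1866 ± 88.5 (ZT21). The day was nearly flat in each genotype, and 9.31% of the exonic bases of Lamp1 are shared with Grtp1. Lamp1 passed with DESeq2 (adjusted p = 0.0434) and with the cosine of each genotype in the edgeR fit (0.0428). It also passed (0.0301 to 0.0482) without any 1 of control ZT1 replicate 3, control ZT13 replicate 2, diabetic ZT1 replicate 1, diabetic ZT5 replicate 4, diabetic ZT9 replicate 3 and diabetic ZT13 replicate 1. Ctsa, protective protein/cathepsin A, which stabilizes Glb1 and Neu1 in a complex, had 829.5, 955 and 1307 in control and 777, 917 and 1195 in diabetic retinas (log2 difference -0.10 ± 0.039 (log2, SE), adjusted p = 0.169). Control means of Ctsa were 980.3 ± 43.4 (ZT1), 968 ± 57.1 (ZT5) and 1019.6 ± 148 (ZT9) by day. At night control Ctsa stood at 973 ± 94.5 (ZT13), 1005 ± 205 (ZT17) and 946 ± 71.8 (ZT21). Diabetic means of Ctsa were 902 ± 44.5 (ZT1), 912 ± 94.4 (ZT5) and 1012 ± 121 (ZT9) by day. At night diabetic Ctsa stood at 877 ± 69.6 (ZT13), 915 ± 127 (ZT17) and 880.2 ± 73.0 (ZT21). The diabetic mean was the lower at 6 of 6 time points, and 17.4% of its exonic bases are shared with Neurl2 and Pltp. At an unadjusted p under 0.05 there were 11 members, beside 15.5% of all genes. Of these 7 were lower and 4 higher in diabetic retinas, beside 7.49% and 8.04% of all genes. The other lower ones were Hexa (-0.092), Naglu (-0.13) and Smpd1 (-0.12), and the higher ones Ctsc (0.11), Ctsh (0.11), Npc2 (0.073) and Npc1 (0.054), all as log2 differences. Of these Smpd1 passed with the mean of the 6 time point contrasts (adjusted p = 0.0408) and with the cosine of each genotype in the fit (0.0391). Over the 37 genes 21 differences were below 0 (56.8%, beside 49.4% of all genes) and 16 above, with a median of -0.0093, against 0.0012 over all genes tested. In the same comparison the cone markers Gnat2 (-0.12) and Pde6h (-0.14), 2 of 5, and the microglia marker Cx3cr1 (-0.23), 1 of 8 tested, fell in diabetic retinas, and their part in the lysosomal differences was not tested. Of the other lists 1 of 3 tested lens markers differed, and 0 of 5 rod, 0 of 5 Müller glia, 0 of 8 pigment epithelium and 0 of 4 endothelial markers did (edgeR, with 3, 1, 2 and 1 at an unadjusted p under 0.05).

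**Figure D5:**
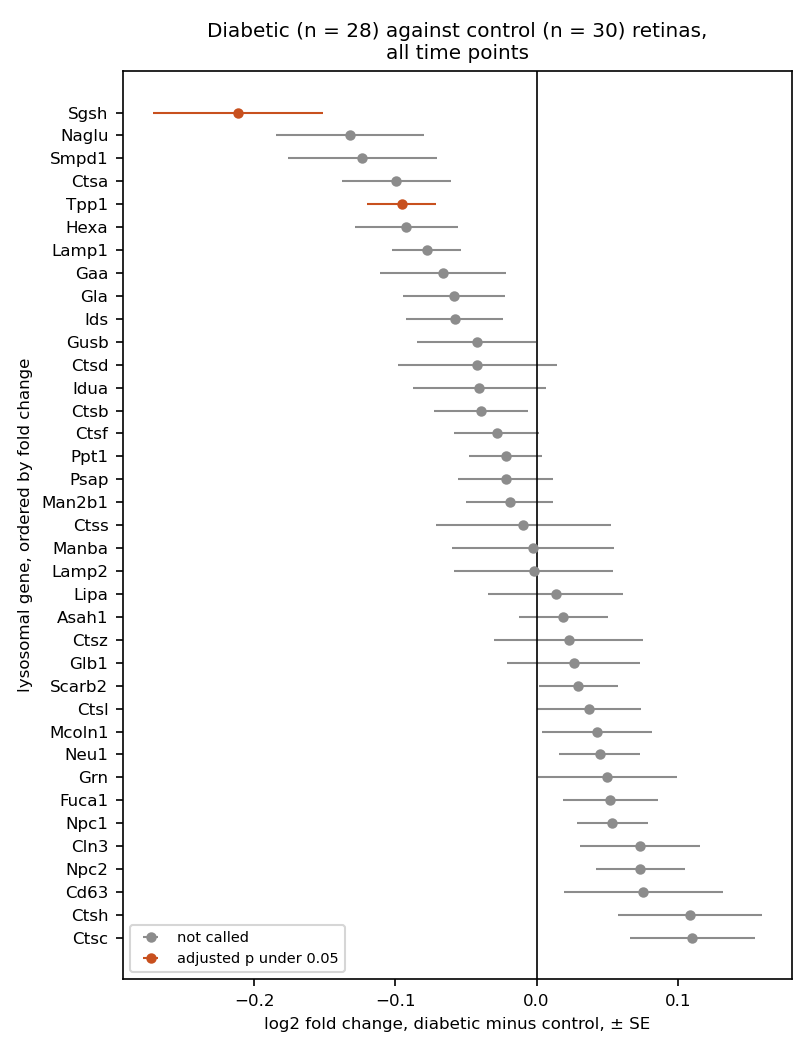
Log2 fold change, diabetic minus control over all time points, of each of the 37 genes (points, ± SE), ordered by size, with the called genes Tpp1 and Sgsh coloured. Sgsh has the most negative value, Tpp1 has a smaller change with a narrower error, and most of the other genes lie near 0.

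At single time points 0 of the 37 genes passed at any of the 6 (edgeR), and DESeq2 also called 0 of 37 at each. Over all genes the shares called by day were 0.0105% (ZT1), 0.0209% (ZT5) and 0.00523% (ZT9), and by night 0% (ZT13), 0.167% (ZT17) and 0% (ZT21). At an unadjusted p under 0.05 there were 1, 1, 1, 3, 3 and 1 members, beside 5.5%, 6.15%, 4.49%, 4.46%, 8.82% and 4.67% of all genes. They are given with the log2 difference, diabetic minus control, ± SE. These were Smpd1 at ZT1 (-0.24 ± 0.091), Glb1 at ZT5 (-0.24 ± 0.10), Sgsh at ZT9 (-0.24 ± 0.12) and Gla at ZT21 (-0.20 ± 0.086). At ZT13 they were Tpp1 (-0.18 ± 0.061), Sgsh (-0.30 ± 0.13) and Cd63 (0.30 ± 0.13). At ZT17 they were Sgsh, Tpp1 (-0.14 ± 0.061) and Lipa (0.22 ± 0.10). Sgsh at ZT17 was the largest difference of the members at 1 time point. Control retinas had values of 156, 164, 174, 188 and 223, and diabetic retinas values of 109, 114, 135 and 175, with only the highest diabetic retina inside the control range. The difference was -0.45 ± 0.13 (log2, SE) (adjusted p = 0.125). Without diabetic ZT17 replicate 3, that highest retina, it passed (adjusted p = 0.0226).

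Of 70 other lysosomal genes (the proton pump, sorting of enzymes, nutrient sensing at the lysosome and further hydrolases and membrane proteins), 69 passed the filter, and 5 of 69 had a called rhythm in control retinas (beside 12.2% of all genes) and 4 of 69 in diabetic retinas (beside 14.3%). Their amplitudes had medians of 0.065 and 0.067, close to those of the 37. The smallest p in both genotypes belonged to Lgmn, the asparaginyl endopeptidase that cuts cathepsins into their mature chains, with an amplitude of 0.29 ± 0.035 (log2, SE) and an acrophase of ZT19.4 ± 0.454 h (SE) in control (adjusted p = 3.98e-08) and an amplitude of 0.34 ± 0.035 (log2, SE) and an acrophase of ZT18.2 ± 0.402 h (SE) in diabetic retinas (adjusted p = 3.74e-10). That phase lay beside those of Ctsd and Smpd1. In control retinas it was followed by Acp2, lysosomal acid phosphatase (0.088, ZT6.29, adjusted p = 0.00478), and the proton pump subunit Atp6v1f (0.17, ZT19.4, adjusted p = 0.00478). In diabetic retinas it was followed by the pump subunit Atp6v0a1 (0.11, ZT17.9, adjusted p = 0.0213) and Rragc, a GTPase of nutrient sensing (0.13, ZT8.27, adjusted p = 0.0423). The difference of rhythm passed for 0 of 69 (edgeR, 1 at an unadjusted p under 0.05, and 0 by DESeq2). Over all time points 1 of 69 passed, beside 2.99% of all genes. It was Laptm4b, a membrane protein of late endosomes, which was lower in diabetic retinas by a log2 difference of -0.095 ± 0.027 (log2, SE) (adjusted p = 0.0367), and without the 3 lens-rich libraries 0 of 69 passed. TCACGTG stood in 15 of the 51 with a promoter window (29.4%), near the share of the 37.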

How the data were processed

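Total RNA from single retinas was depleted of ribosomal RNA and made into libraries with the KAPA RNA HyperPrep kit with RiboErase. The deposited table holds raw counts, whole numbers of reads per gene, which the authors made by alignment with STAR 2.7.4a to GRCm38.p5 and counting with HTSeq 0.11.1 over Gencode M15 genes. The submitters' notes also name FastQC and DESeq2 1.26.0. The strand setting of the counting is not given in the sources used here. Groups came from the genotype and time labels.

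Counts were tested with edgeR 4.0.16 (R 4.3.3, quasi-likelihood test, TMM scaling) on the 19120 genes with a median above 4 normalized counts, with Benjamini-Hochberg adjustment over all of them and a threshold of 0.05, in place of the study's empJTK and DESeq2 tests because counts are tested here with edgeR. Rhythms were a cosine and a sine of 24 h for each genotype in 1 fit of all 58 libraries, and their difference was tested in that fit. Genotypes were compared over all time points with genotype alone, and at each time point in a fit of 12 groups. The normalized counts printed are counts divided by DESeq2 size factors, and means are given ± SD over the libraries of a group. The total counts per library limit the precision.

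The 37 members, the role groups, the 70 other lysosomal genes and the cell type markers were chosen with earlier results of these data known. Values at all time points were given for the 6 members with the smallest p for rhythm in each genotype, the 3 for the difference of rhythm and the 4 over all time points, with any member called at 1 time point, and the other members were given by counts, ranges and single values. Of the other lysosomal genes the 3 with the smallest p for rhythm in each genotype were named, and Laptm4b, Gla at ZT21 and the members with an unadjusted p under 0.05 were named after their values were seen. Alternatives were DESeq2 1.42.0, DESeq2 size factors, filters of 10 or more reads in all and of filterByExpr, no adjustment, a test of any difference among the 6 time points, a rank test of 30 waveforms with 200000 shuffles (called at an unadjusted p under 0.05 with a minimum fold between the lowest and the highest library), a replicate block, and leaving out each library and each time point. The covariate of pigment epithelium markers and the fit without lens-rich libraries were chosen after the data were seen. Of 52457 symbols, 47982 matched 1 gene of Gencode M21 (GRCm38), used for exons and positions, as did all 37 members. Promoter windows came from RefSeq on GRCm38.p6. The fits were tested on simulated data. No replicate pair agreed within sampling noise.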

Additional observations from a re-analysis of the deposited data

Results flagged for a closer look

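Among the members given with values at all time points, 168 groups of 4 to 6 libraries were searched for 1 library far from the others, and 7 were found, where chance gives about 1 in 20. In control retinas, Ctsa had a normalized count of 1283 in ZT9 replicate 4, against 941 to 971 in the other libraries of the group. Smpd1 had 1247 in control ZT13 replicate 2, against 1576 to 1655, and Tpp1 had 1528 in control ZT5 replicate 1, against 1702 to 1756. In diabetic retinas, ZT1 replicate 1 stood high for 2 members of the membrane and sphingolipid groups, Lamp1 with 2113 against 1843 to 1903 and Psap with 7717 against 6512 to 6790.2. Ppt1 had 1035 in diabetic ZT5 replicate 3, against 960.2 to 974, and Sgsh had 146 in diabetic ZT9 replicate 5, against 189 to 196.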

How the results depend on the processing

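Calls close to the threshold moved, and so did some further from it, such as diabetic Sgsh, Ppt1 and Cln3 without 1 time point. Of 37 members, the 3 with a rhythm in control retinas became 11 without adjustment, 5 with DESeq2 (beside 13.6% of all genes), 8 by the rank test (which, here and below, is unadjusted and called 21.8% of all genes in control and 23.9% in diabetic retinas), 1 by the test of any difference among time points and 1 without ZT1, ZT5, ZT17 or ZT21, and 1 to 7 when 1 library was left out. The 10 in diabetic retinas became 4 with the pigment epithelium covariate, 6 without ZT5, 5 without ZT9, 4 without ZT17 and 4 without ZT21, and 6 to 12 when 1 library was left out. Their count was 9 without ZT1 and 12 without ZT13. The 0 for the difference of rhythm became 2 without adjustment and stayed 0 to 0 when 1 library was left out. The 2 that differed over all time points became 11 without adjustment (beside 15.5% of all genes) and 4 with the cosine of each genotype in the fit, and 1 to 3 when 1 library was left out. For the fit with the cosine the share of all genes is not given here. At ZT1, ZT5, ZT9, ZT13, ZT17 and ZT21 the 0 became 1, 1, 1, 3, 3 and 1 without adjustment, and leaving out 1 library gave 0 to 0 except at ZT17, with 0 to 1.

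Of 69 other lysosomal genes, the 5 with a rhythm in control retinas became 15 without adjustment, 10 by the unadjusted rank test, 3 without the lens-rich libraries, 2 without ZT5 and 1 without ZT17, and 3 to 10 when 1 library was left out. The 4 in diabetic retinas became 17 without adjustment, 15 by the unadjusted rank test, 2 with the filter of 10 or more reads, 2 without the lens-rich libraries, 1 without ZT1, 2 without ZT13, 2 without ZT17, 1 without ZT21 and 1 by the test of any difference, and 2 to 5 when 1 library was left out. The difference of rhythm gave 1 without adjustment. The 1 over all time points became 9 without adjustment, 0 with the filter of 10 or more reads, 0 without the lens-rich libraries, 3 with the mean of the 6 contrasts and 3 with the cosine in the fit, and 0 to 3 when 1 library was left out. Leaving out the adjustment can only add calls, and for the other settings the cause of the change was not tested.

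The labels give no shared animal, batch or day for a replicate number, and not every pair of same-numbered libraries of the genotypes deviated together: of 26 pairs, 15 had a correlation above 0.1 (lowest -0.219, median 0.126, highest 0.579). The numbers were therefore not taken as pairs. With the replicate number as a block, 5 members passed in control retinas (Ctsb and Grn added), 11 in diabetic retinas (Ctsl added) and 1 over all time points, with Sgsh at an adjusted p of 0.0605 there, and 10 other lysosomal genes passed in control retinas. Over the named members, 1521 values kept their side of the threshold and, where they had one, their direction. Another 32 passed the threshold anew, 101 no longer passed it and 0 reversed. The cosine tests have no direction, and many of the values came from overlapping fits that each left out 1 library.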
